A study of Mus musculus with 16 samples.

Results

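The genes described here encode 10 heat shock proteins of the cytosol and the mitochondrial matrix and their helper proteins, measured in mouse ventricular myocardium. They were chosen by symbol (Hspb1, Cryab, Hspa1b, Hspa8, Dnajb1, Hsph1, Bag3, Hsp90aa1, Hspd1 and Hspe1), and all 10 were found among the 18193 genes tested, on 25 probe sets. Each gene is given by its brightest probe set, and its other probe sets served as a check. The series set mice lacking the adenosine 2A receptor (A2AR, which senses adenosine outside cells and raises cAMP within them) beside littermates, with and without lipopolysaccharide (LPS, a bacterial endotoxin that provokes systemic inflammation). The groups were A2AR KO mice given 20 mg/kg LPS from E. coli, A2AR KO mice given saline, WT littermates given the same LPS and WT littermates given saline, with 4 arrays each. All mice were male, on a CD1 background and 14 weeks old, they came from the same breeding series, and LPS or saline had been injected into the peritoneum 24 h before collection. Both genotypes came from a sub-colony of an existing A2AR line, genotyped by PCR. The labels do not say that each array is a separate mouse, so p values measure the spread between these arrays. The genotype of each array rests on its label. Values are log2 probe set summaries of Affymetrix arrays, and arrays have no read depth, so their number limits the precision.

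Heat shock proteins are chaperones that bind unfolded or misfolded proteins, keep them from clumping and help them refold. Heat shock factor 1 raises many of them after heat or other proteotoxic stress by binding heat shock elements, repeats of the letters GAA and their complement in promoters. In heart muscle the small heat shock proteins also bind sarcomere and cytoskeletal proteins, and the mitochondrial chaperonin folds enzymes imported into the matrix.

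LPS did not move the heat shock genes as 1 block. After 24 h Hspb1 rose about 2-fold in both genotypes (fold 2.09 in KO and 1.91 in WT hearts), while Hsph1 and the mitochondrial Hspe1 fell in both, and Hspd1 fell in KO hearts. Cryab, Hspa1b, Hspa8, Dnajb1, Bag3 and Hsp90aa1 passed the test in neither genotype. In KO hearts 1 of 10 members rose, where 11.4% of all genes tested rose, and 3 fell, where 14.7% of all genes fell (limma, adjusted p under 0.05 over all genes). In WT hearts 1 rose (9.28% of all genes) and 2 fell (11.6% of all genes). No difference from all genes is read from counts this small. The same shares of all genes are the background for the LPS counts of every gene list below, cell type markers included. The median log2 change of the members was 0.07 in KO hearts and -0.08 in WT hearts, and over all genes it was -0.02 and -0.003. Some arrays stood apart. On the first principal component of all genes, WT LPS array 4 lay at 7.58, against 27.55 to 54.04 for the other LPS arrays, and on the second it lay at -35.33 and KO LPS array 2 at 36.64. Without WT LPS array 4, 5 members and 4902 of all genes were called in WT hearts, in place of 3 and 3798. Without KO LPS array 2, 4 members were called in each genotype. WT saline arrays 1 and 4 lay with their group on these components but not in skeletal muscle markers. Their means over 8 skeletal muscle markers were 5.88 and 7.57, against 3.75 to 3.97 in the other 14 arrays. Without both arrays only Hspb1 was called in WT hearts, and all genes called in that comparison numbered 2061. The KO comparison kept its count of 4 called members without them.

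**Figure D1:**
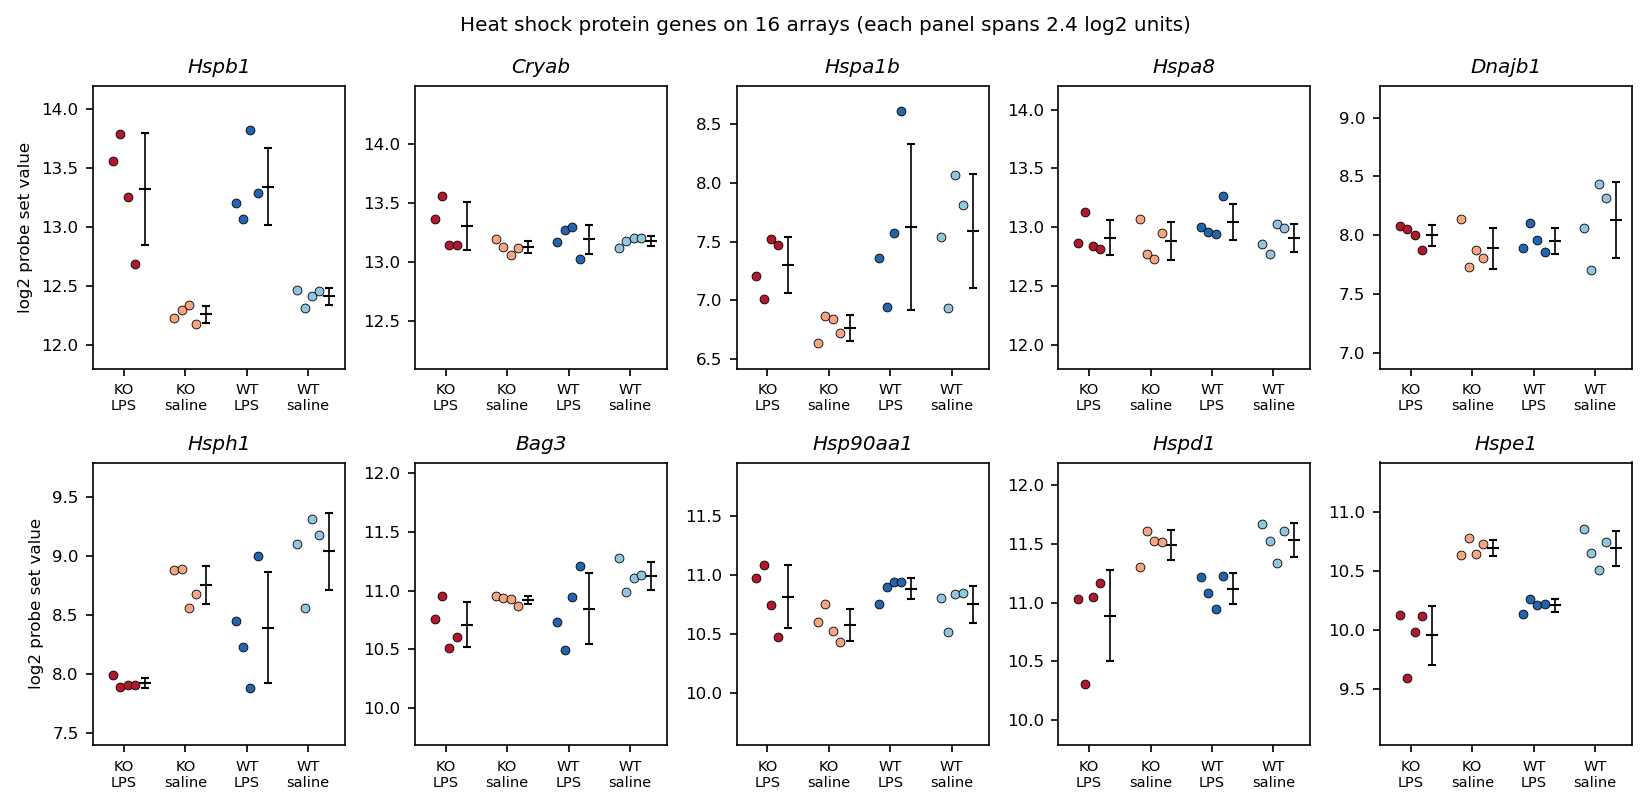
Log2 value of each heat shock gene (vertical axis, brightest probe set) on each of the 16 arrays by group (horizontal axis), with the group mean and SD at the right of the points (n = 4 arrays per group). Hspb1 sat between 12.69 and 13.82 in the LPS arrays of both genotypes, above all saline arrays, and Hspe1 sat below all saline arrays after LPS.

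Small heat shock proteins come first. Hspb1 encodes the mouse protein HSP25, which binds unfolding proteins without ATP and protects actin filaments. Its log2 values were 13.56, 13.79, 13.25 and 12.69 in KO LPS hearts, against 12.22, 12.30, 12.34 and 12.17 in KO saline hearts. In WT hearts they were 13.20, 13.06, 13.82 and 13.28 after LPS, against 12.46, 12.31, 12.41 and 12.45 after saline. Every LPS array lay above every saline array in both genotypes, and the LPS arrays spread more widely than the saline arrays (SD 0.48 against 0.07 in KO hearts and 0.33 against 0.07 in WT hearts, n = 4 each). Hspb1 rose by 1.06 ± 0.18 on the log2 scale in KO hearts (limma standard error, adjusted p = 0.000362) and by 0.93 ± 0.18 in WT hearts (adjusted p = 0.00132). Leaving out any single array kept the change between 0.91 and 1.27 in KO hearts and between 0.78 and 1.03 in WT hearts, with the call held each time. Its other probe set, of a type that may bind related transcripts too, rose by 1.15 ± 0.19 in KO and 1.07 ± 0.19 in WT hearts. The promoter window of Hspb1 is shown because it was the member that rose most (RefSeq, GRCm38.p6, chr5:135887669-135887968, plus strand, 250 bases before to 50 bases after the start site). Capitals mark matches to the 2-unit heat shock element GAANNTTC or TTCNNGAA, each of which reads the same on both strands. The matches began 117 and 97 bases before the start site.
Hspb1: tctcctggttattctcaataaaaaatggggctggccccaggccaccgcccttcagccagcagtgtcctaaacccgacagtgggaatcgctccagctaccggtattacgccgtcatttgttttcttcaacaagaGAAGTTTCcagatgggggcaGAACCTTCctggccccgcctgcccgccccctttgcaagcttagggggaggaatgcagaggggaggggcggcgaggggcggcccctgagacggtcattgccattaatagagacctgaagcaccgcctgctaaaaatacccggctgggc

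Cryab encodes alpha-B crystallin, a small heat shock protein abundant in cardiomyocytes that binds desmin and other filaments. On the log2 scale it gave 13.37, 13.56, 13.15 and 13.14 in KO LPS hearts, against 13.20, 13.13, 13.06 and 13.12 in KO saline hearts. They were 13.17, 13.27, 13.30 and 13.03 in WT LPS hearts, against 13.12, 13.18, 13.21 and 13.20 in WT saline hearts. The groups overlapped in both genotypes, and the changes were 0.18 ± 0.08 in KO hearts (adjusted p = 0.142, 95% interval -0.001 to 0.36) and 0.02 ± 0.08 in WT hearts (adjusted p = 0.921, interval -0.16 to 0.20). A second bright probe set of Cryab gave -0.01 ± 0.08 and 0.04 ± 0.08, and the third had a mean of 3.49, under the median of 4.66 over all probe sets.

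Of the 5 other small heat shock protein genes, Hspb3 and Hspb8 fell in both genotypes. Hspb3, which encodes a muscle protein, fell by 0.62 ± 0.19 in KO hearts (adjusted p = 0.0219) and by 1.09 ± 0.19 in WT hearts (adjusted p = 0.000448). Hspb8, the partner of BAG3 in chaperone-assisted autophagy, fell by 0.69 ± 0.19 (adjusted p = 0.0142) and 0.65 ± 0.19 (adjusted p = 0.0223). Hspb2 is the neighbour of Cryab in the gene order of the reference. It ran from 9.59 to 10.03 in KO LPS hearts, against 9.28 to 9.44 in KO saline hearts, and rose by 0.42 ± 0.11 (adjusted p = 0.00961). In WT hearts Hspb2 ran from 9.43 to 9.87 after LPS, against 9.22 to 9.44 after saline, with a change of 0.24 ± 0.11 (adjusted p = 0.145). Hspb6 and Hspb7, both abundant in the heart, had changes between -0.08 and 0.08 in either genotype and were not called. Among small heat shock proteins the called genes went in both directions in both genotypes.

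The HSP70 system follows. Hspa1b encodes a stress-inducible HSP70. Its log2 values were 7.20, 7.01, 7.52 and 7.47 in KO LPS hearts, against 6.63, 6.87, 6.84 and 6.72 in KO saline hearts. They were 7.36, 6.95, 7.57 and 8.61 in WT LPS hearts, against 7.54, 6.94, 8.07 and 7.81 in WT saline hearts. The KO LPS arrays lay above the KO saline arrays without overlap, and the WT groups overlapped, with WT LPS array 4 the highest of all 16. The changes were 0.54 ± 0.28 in KO hearts (adjusted p = 0.185, 95% interval -0.06 to 1.13) and 0.03 ± 0.28 in WT hearts (adjusted p = 0.957, interval -0.56 to 0.62). Without WT LPS array 4 the WT value was -0.30 (adjusted p = 0.369). With only the KO groups in the fit, the KO change of 0.54 was called (adjusted p = 0.0130). The other 2 Hspa1b probe sets gave 0.41 ± 0.24 and 0.27 ± 0.31 in KO hearts and 0.04 ± 0.24 and 0.03 ± 0.31 in WT hearts, with no call.

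Hspa1a, the neighbouring gene, encodes a nearly identical HSP70, so the arrays may not tell the 2 transcripts apart. Its probe set ran from 4.38 to 4.88 in KO LPS hearts, against 3.90 to 4.20 in KO saline hearts, and from 4.27 to 6.59 in WT LPS hearts, against 4.21 to 4.80 in WT saline hearts. The highest value was again WT LPS array 4, and neither change was called (0.55 ± 0.33 in KO and 0.61 ± 0.33 in WT hearts, adjusted p = 0.253 and 0.226). The mean of this Hspa1a probe set over all arrays lay under the median of 4.66 over all probe sets. The Hspa1b window is shown as that of the inducible HSP70 (chr17:34959189-34959488, minus strand), with the 2-unit match in capitals 104 bases before the start site. The Hspa1a window carries a match at the same distance.
Hspa1b: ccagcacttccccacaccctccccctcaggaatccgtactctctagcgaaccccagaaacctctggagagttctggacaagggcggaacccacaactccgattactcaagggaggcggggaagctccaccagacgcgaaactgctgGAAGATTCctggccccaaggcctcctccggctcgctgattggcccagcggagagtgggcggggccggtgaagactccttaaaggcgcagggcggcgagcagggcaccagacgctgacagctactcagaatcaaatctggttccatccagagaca

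Hspa8 encodes HSC70, the constitutive HSP70 that works in folding, clathrin uncoating and autophagy. The arrays gave log2 values of 12.87, 13.13, 12.84 and 12.81 in KO LPS hearts, against 13.07, 12.77, 12.73 and 12.96 in KO saline hearts. They were 13.00, 12.96, 12.94 and 13.27 in WT LPS hearts, against 12.86, 12.77, 13.03 and 12.99 in WT saline hearts. The groups overlapped, and the changes were 0.03 ± 0.10 in KO hearts (95% interval -0.18 to 0.23) and 0.13 ± 0.10 in WT hearts (interval -0.07 to 0.34). None of the 3 other Hspa8 probe sets was called in either genotype. Dnajb1, an HSP40 that hands clients to HSP70 and stimulates its ATPase, ran from 7.88 to 8.08 in KO LPS hearts, against 7.73 to 8.14 in KO saline hearts, and from 7.86 to 8.10 in WT LPS hearts, against 7.70 to 8.43 in WT saline hearts. Its changes were 0.11 ± 0.14 in KO and -0.18 ± 0.14 in WT hearts (adjusted p = 0.618 and 0.447). Its second probe set gave 0.42 ± 0.17 and 0.15 ± 0.17 and was not called.

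Hsph1 encodes HSP110, which exchanges nucleotide on HSP70 and takes part in disaggregation. Its log2 values were 7.99, 7.89, 7.91 and 7.91 in KO LPS hearts, against 8.88, 8.89, 8.56 and 8.68 in KO saline hearts. They were 8.45, 8.23, 7.88 and 9.01 in WT LPS hearts, against 9.11, 8.56, 9.31 and 9.18 in WT saline hearts. The KO LPS arrays were tightly grouped below all KO saline arrays, whereas WT LPS array 4 lay among the WT saline arrays. Hsph1 fell by 0.83 ± 0.19 in KO hearts (adjusted p = 0.00432) and by 0.65 ± 0.19 in WT hearts (adjusted p = 0.0240). The WT call was lost without WT saline array 1, 3 or 4 (adjusted p = 0.0591, 0.0805 and 0.0703) or WT LPS array 2 or 3 (0.0702 and 0.0920). It was also lost with only the WT groups in the fit (adjusted p = 0.0915) and by the second probe set (-0.63 ± 0.27, adjusted p = 0.145). In KO hearts that probe set fell by 0.83 ± 0.27 (adjusted p = 0.0421). Its KO LPS values were 6.57, 5.53, 6.54 and 6.59, with array 2 far below the others. Its KO saline values ran from 6.74 to 7.62. The Hsph1 window is shown as that of a member that fell (chr5:149636266-149636565, minus strand). Its matches begin 54 bases before and 15 and 20 bases after the start site, and the last 2 overlap in a 3-unit form, a 2-unit match with a further TTC or GAA after a gap of 2 bases.
Hsph1: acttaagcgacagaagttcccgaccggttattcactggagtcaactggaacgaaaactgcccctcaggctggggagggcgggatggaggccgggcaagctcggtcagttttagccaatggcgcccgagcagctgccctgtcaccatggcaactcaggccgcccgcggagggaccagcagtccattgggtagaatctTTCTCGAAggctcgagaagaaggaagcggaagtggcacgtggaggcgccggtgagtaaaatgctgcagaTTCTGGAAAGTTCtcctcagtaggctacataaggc

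Bag3 encodes a cochaperone that joins HSP70 to HSPB8 and directs damaged sarcomere proteins to autophagy. For Bag3 the arrays gave log2 values of 10.76, 10.95, 10.51 and 10.61 in KO LPS hearts, against 10.95, 10.94, 10.93 and 10.87 in KO saline hearts. They were 10.74, 10.50, 10.94 and 11.21 in WT LPS hearts, against 11.28, 10.99, 11.11 and 11.13 in WT saline hearts. KO LPS array 2 equalled the highest KO saline array to 2 decimals and WT LPS array 4 lay within the WT saline range, and the other LPS arrays lay below the saline arrays of their genotypes. The changes were -0.21 ± 0.13 in KO hearts (adjusted p = 0.254) and -0.28 ± 0.13 in WT hearts (adjusted p = 0.147). Without WT LPS array 4 the WT change was -0.40 and was called (adjusted p = 0.0137), the only call among 16 fits with 1 array left out.

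Among the other 9 HSP70 and HSP110 genes listed, 3 rose and 1 fell in KO hearts, and 2 rose and 1 fell in WT hearts. Hspa4, an HSP110 relative of Hsph1, rose by 0.42 ± 0.09 in KO and 0.30 ± 0.09 in WT hearts (adjusted p = 0.00261 and 0.0245), the opposite direction to Hsph1. Hspa13, an HSP70 relative found in microsomes, rose by 0.33 ± 0.09 and 0.41 ± 0.09, and Hspa12a, a distant relative, fell by 0.66 ± 0.12 and 0.54 ± 0.12. Hspa2, an HSP70 best known from male germ cells, ran from 5.57 to 7.52 in KO LPS hearts, against 5.13 to 5.45 in KO saline hearts, and rose by 1.53 ± 0.37 (adjusted p = 0.00493). In WT hearts Hspa2 ran from 5.08 to 6.67 after LPS, against 5.13 to 5.36 after saline (change 0.70 ± 0.37, adjusted p = 0.212). Of 10 other DNAJ genes, 2 rose and 3 fell in KO hearts and 1 rose and 2 fell in WT hearts. Dnajb4 rose in both (0.79 ± 0.20 and 0.82 ± 0.20), and Dnaja4 (-0.76 ± 0.19 and -0.57 ± 0.19) and Dnajb5 (-0.59 ± 0.20 and -0.79 ± 0.20) fell in both. In KO hearts Dnajc5 also rose (0.24 ± 0.08) and Dnaja2 also fell (-0.38 ± 0.09). Of 7 genes of BAG proteins and other HSP70 cochaperones, none rose, 2 fell in KO hearts (Hspbp1 and St13) and 1 fell in WT hearts (St13).

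Hsp90aa1 encodes the stress-inducible cytosolic HSP90, which matures kinases and steroid receptors. Its log2 values were 10.97, 11.08, 10.74 and 10.48 in KO LPS hearts, against 10.60, 10.75, 10.53 and 10.43 in KO saline hearts. They were 10.75, 10.90, 10.95 and 10.94 in WT LPS hearts, against 10.81, 10.52, 10.84 and 10.85 in WT saline hearts. The groups overlapped in both genotypes, and the changes were 0.24 ± 0.12 in KO hearts (adjusted p = 0.165) and 0.13 ± 0.12 in WT hearts (adjusted p = 0.514). Without KO LPS array 4, the lowest of its group, the KO change was 0.36 and was called (adjusted p = 0.0230). That was the only call among 16 fits with 1 array left out. Without KO LPS array 2, the highest of its group, the KO change was 0.15. Its probe sets did not all point 1 way in WT hearts, where 1 of them gave -0.52 ± 0.25 (adjusted p = 0.202), and 2 of the 5 lay under the median over all probe sets. The probe set at -0.52 gave 8.48 in WT LPS array 4, against 9.43 to 9.68 in the other WT LPS arrays.

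Some genes of HSP90 cochaperones fell. Of 12 measured genes of the 16 listed, 5 fell in KO and 4 in WT hearts, and none rose. Of all genes 14.7% fell in KO and 11.6% in WT hearts, and the difference from this list was not tested. Fkbp4, the FKBP52 immunophilin that couples HSP90 to steroid receptors, ran from 7.98 to 8.81 in KO LPS hearts, against 9.85 to 10.02 in KO saline hearts. In WT hearts it ran from 8.41 to 9.41 after LPS, against 9.92 to 10.15 after saline. Neither pair of groups overlapped, and Fkbp4 fell by 1.54 ± 0.19 and 1.34 ± 0.19 (adjusted p = 1.76e-05 and 8.07e-05), larger log2 changes than those of any member in the same genotype. The kinase cochaperone Cdc37 fell by 0.43 ± 0.13 and 0.38 ± 0.13, and Unc45b, the myosin chaperone of striated muscle, by 0.60 ± 0.16 and 0.47 ± 0.16. Ahsa2 and Chordc1 fell in KO hearts, and the ubiquitin ligase gene Stub1 fell in WT hearts.

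The mitochondrial chaperonin is made of HSP60, encoded by Hspd1, and its lid HSP10, encoded by Hspe1. The 2 genes are next to each other in the reference and are read in opposite directions. For Hspe1 the log2 values were 10.13, 9.59, 9.99 and 10.12 in KO LPS hearts, against 10.64, 10.78, 10.65 and 10.73 in KO saline hearts. They were 10.13, 10.27, 10.21 and 10.22 in WT LPS hearts, against 10.86, 10.65, 10.52 and 10.75 in WT saline hearts. Every LPS array lay below every saline array, and Hspe1 fell by 0.75 ± 0.11 in KO hearts (fold 0.597, adjusted p = 9.07e-05) and by 0.48 ± 0.11 in WT hearts (fold 0.715, adjusted p = 0.00403). Its second probe set fell by 0.59 ± 0.15 in KO hearts and gave -0.41 ± 0.15 in WT hearts (adjusted p = 0.0896). Without WT saline arrays 1 and 4 the WT change was -0.38 (adjusted p = 0.101).

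For Hspd1 the log2 values were 11.03, 10.31, 11.04 and 11.16 in KO LPS hearts, against 11.30, 11.61, 11.52 and 11.51 in KO saline hearts. They were 11.21, 11.08, 10.95 and 11.22 in WT LPS hearts, against 11.67, 11.52, 11.34 and 11.61 in WT saline hearts. Again no LPS array reached a saline array of its genotype. Hspd1 fell by 0.60 ± 0.15 in KO hearts (adjusted p = 0.00602). Its WT change was -0.42 ± 0.15 (adjusted p = 0.0545) and was not called. KO LPS array 2 was the lowest for both genes, and without it the KO fall of Hspd1 was -0.41 (adjusted p = 0.00598) and the WT change of -0.42 was called (adjusted p = 0.00263). The WT change was also called without WT saline array 3 (adjusted p = 0.0465), WT LPS array 4 (0.0441) or KO LPS array 4 (0.0430), and with only the WT groups in the fit (0.0141). Of 16 limma fits with 1 array left out, 4 called the WT change, and the adjusted p reached 0.151. The deviations of Hspd1 and Hspe1 from their group means moved together across the arrays (Pearson r = 0.87 over 16 arrays and 0.87 without WT LPS array 4), but without KO LPS array 2, the lowest for both, r was 0.59. The points share array and normalization.

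The windows of the pair are shown because 285 of their 300 bases are the same stretch read from opposite strands. Capitals mark a run that matches the 2-unit element 3 times and both orders of the 3-unit form. It begins 89 bases before the Hspe1 start site (chr1:55087898-55088197, plus strand) and 144 bases before the Hspd1 start site of its second window (chr1:55087883-55088182, minus strand). Across 32851 windows of that length, 15.1% held a 2-unit match and 0.603% a 3-unit match. Windows were at hand for 7 of the 10 members (10 windows, some overlapping). Of these windows, 7 held a 2-unit and 4 a 3-unit match. The 4 were the second window of Hspd1, that of Hspe1 and both of Hsph1. That Hspd1 window and the Hspe1 window hold the same run, and the Hsph1 windows overlap, so the 4 are not separate elements. The first Hspd1 window and both Dnajb1 windows held no match. A match is a description of the letters only. Members with matches rose (Hspb1), fell (Hsph1, Hspd1 and Hspe1) or were called in neither genotype (Hspa1b and Bag3).
Hspe1: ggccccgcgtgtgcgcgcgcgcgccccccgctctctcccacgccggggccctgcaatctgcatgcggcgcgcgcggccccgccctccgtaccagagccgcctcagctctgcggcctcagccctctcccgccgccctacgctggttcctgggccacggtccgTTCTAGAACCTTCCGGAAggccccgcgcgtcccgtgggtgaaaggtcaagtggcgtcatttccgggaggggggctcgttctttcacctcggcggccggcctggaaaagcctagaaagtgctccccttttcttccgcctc
Hspd1: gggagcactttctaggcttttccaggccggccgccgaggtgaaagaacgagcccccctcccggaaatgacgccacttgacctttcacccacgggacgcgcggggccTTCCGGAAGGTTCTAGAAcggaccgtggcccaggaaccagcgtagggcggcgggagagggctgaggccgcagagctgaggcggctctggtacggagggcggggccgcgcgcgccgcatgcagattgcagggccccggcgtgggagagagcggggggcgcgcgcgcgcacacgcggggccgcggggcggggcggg

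**Figure D2:**
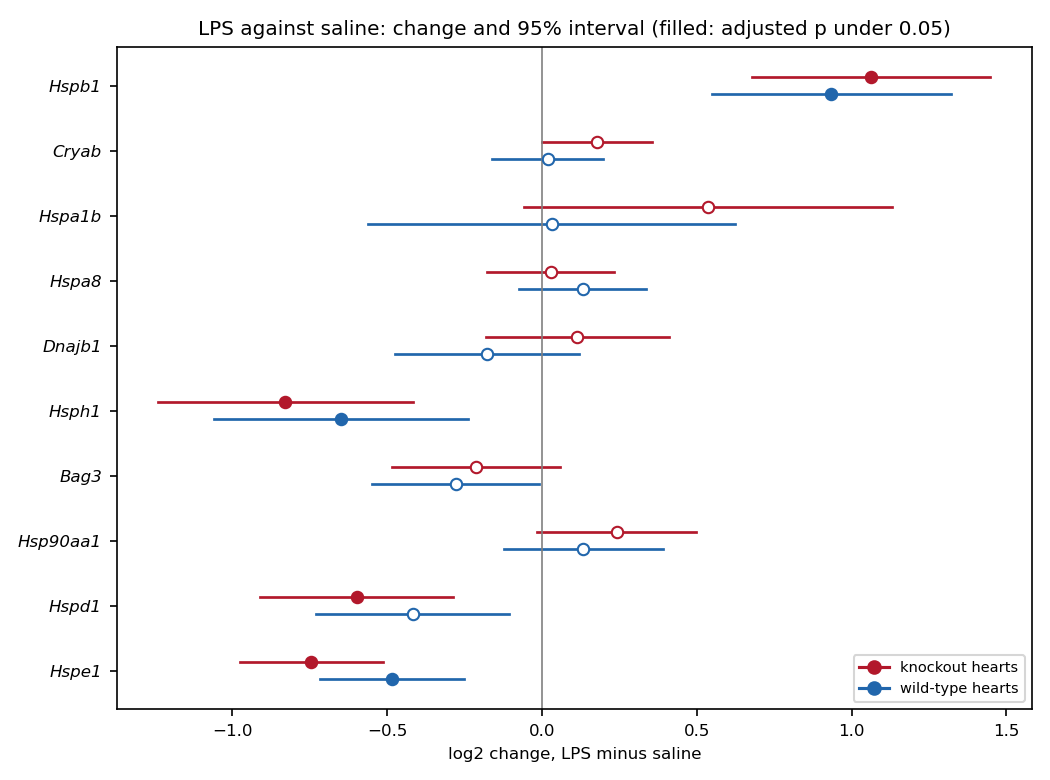
Log2 change after LPS (horizontal axis, LPS minus saline) with its 95% interval for each heat shock gene, in KO hearts above and WT hearts below, from limma over 16 arrays. Filled points passed the adjusted threshold. Hspb1 stood at 1.06 and 0.93, and Hsph1, Hspd1 and Hspe1 lay between -0.83 and -0.42.

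Of 12 other measured mitochondrial chaperone and protease genes, none rose, 2 fell in KO hearts and none was called in WT hearts. The called genes were Dnaja3, the mitochondrial HSP40 (-0.59 ± 0.17, adjusted p = 0.0152), and Hscb, a J protein of iron-sulphur cluster assembly (-0.56 ± 0.19, adjusted p = 0.0428). Hspa9, the mitochondrial HSP70, had changes of -0.33 ± 0.12 in KO hearts (adjusted p = 0.0603) and -0.04 ± 0.12 in WT hearts (adjusted p = 0.875). Hspa9 was thus called in neither genotype. Cytosolic chaperonin (TRiC) genes rose for 2 of 8 in each genotype and fell for none, with Cct2 rising in both (0.45 ± 0.08 and 0.41 ± 0.08), Cct3 in KO and Cct5 in WT hearts. None of 6 prefoldin genes was called. None of the 4 measured genes of the heat shock factor list was called (Hsf2, Hsf4, Hsf5 and the factor binding protein Hsbp1), and Hsf1 and Hsp90ab1 were not analysed here. Hsf2 (group means 4.251 to 4.425) and Hsf5 (3.108 to 3.173) lay under the median of 4.66 over all probe sets, where a change could be missed.

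Over all these lists, 73 other genes were measured, with Hspa13, the microsomal HSP70 relative that rose in both genotypes, among them. In KO hearts 8 rose (11%) and 15 fell (20.5%), and in WT hearts 5 rose (6.85%) and 10 fell (13.7%), beside the 11.4%, 14.7%, 9.28% and 11.6% of all genes. Leaving out 1 array moved these counts to between 7 and 10 rising and 10 and 18 falling in KO hearts, and to between 3 and 9 rising and 4 and 15 falling in WT hearts. The highest WT counts were those without WT LPS array 4, and without WT saline arrays 1 and 4 together 3 rose and 3 fell. Of 15 chaperone genes of the endoplasmic reticulum 9 rose and none fell in KO hearts, and 7 rose and none fell in WT hearts, with list medians of 0.55 and 0.36. With single arrays left out, 8 to 10 rose and none fell in KO hearts, and 5 to 8 rose and 0 to 1 fell in WT hearts, the 1 being without WT LPS array 4. The difference between this list and the others was not tested. Manf rose by 1.05 ± 0.12 and 0.71 ± 0.12, and Sdf2l1 by 1.18 ± 0.17 and 1.06 ± 0.17. Hspa5, the HSP70 of that compartment, rose by 0.61 ± 0.09 in KO hearts (adjusted p = 7.85e-05), and its WT change was 0.18 ± 0.09 (adjusted p = 0.171). Hyou1, Creld2, Pdia6, Calr and Dnajb11 also rose in both genotypes, and Dnajc3 rose in KO hearts.

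**Figure D3:**
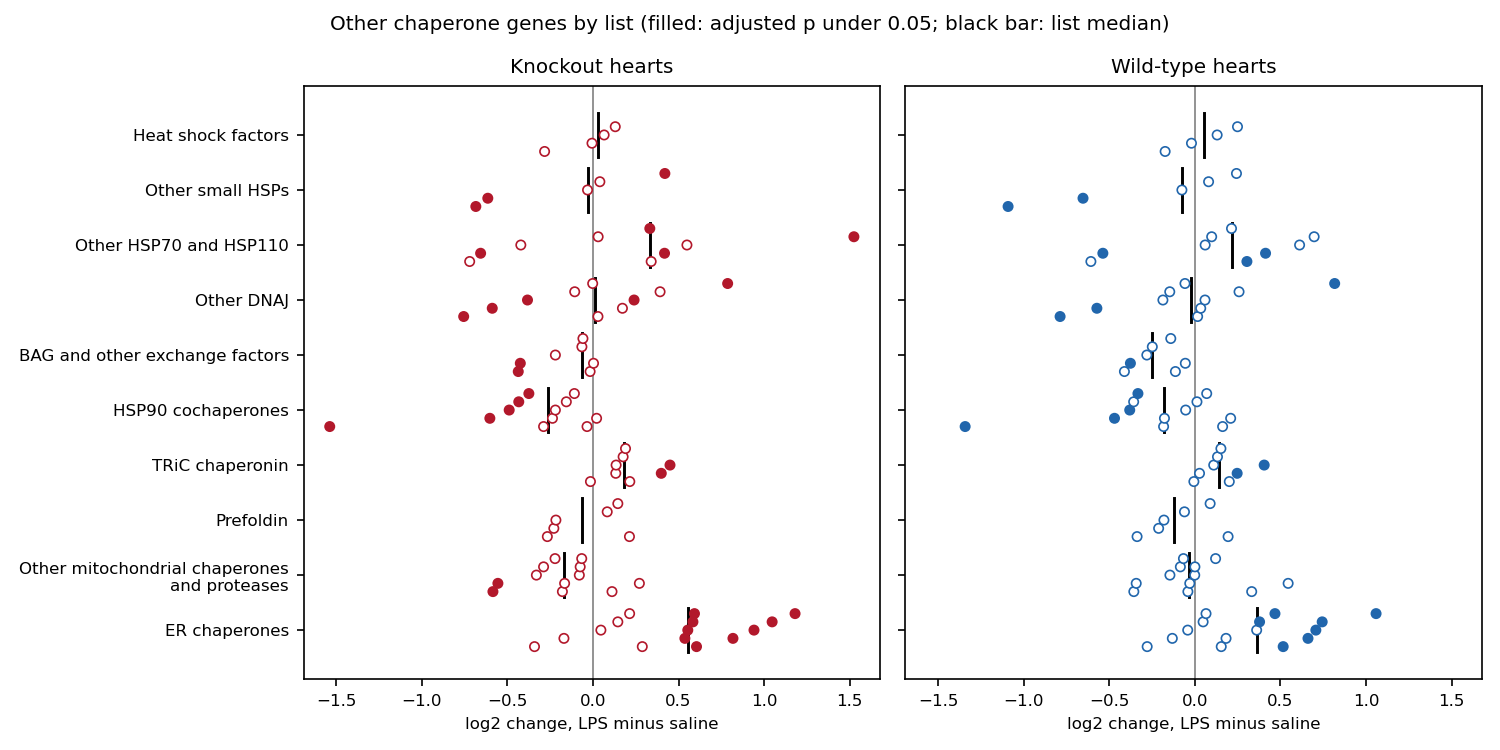
Log2 change after LPS (horizontal axis) of each other chaperone gene by list (vertical axis), in KO hearts at the left and WT hearts at the right. Filled points passed the adjusted threshold and black bars are list medians, which were 0.55 and 0.36 for the endoplasmic reticulum list and -0.26 and -0.18 for the HSP90 list.

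The arrays measured whole ventricle, so fewer cells of a type and less RNA per cell cannot be told apart. Cardiomyocyte markers were abundant on all arrays and fell for 5 of 10 genes in each genotype. Their mean level per array ran from 13.58 to 13.87 in KO LPS hearts, against 14.00 to 14.05 in KO saline hearts, and from 13.75 to 13.89 in WT LPS hearts, against 13.98 to 14.01 in WT saline hearts. Smooth muscle markers fell for 5 of 5 genes in each genotype, and their array means ran from 8.05 to 8.43 in KO LPS hearts, against 9.22 to 9.69 in KO saline hearts, and from 7.58 to 8.53 in WT LPS hearts, against 9.50 to 9.87 in WT saline hearts. Neutrophil markers rose for 5 of 10 genes in each, with array means of 5.66 to 5.94 in KO LPS hearts, against 3.96 to 4.07 in KO saline hearts, and of 5.21 to 5.77 in WT LPS hearts, against 3.91 to 4.07 in WT saline hearts. Adipocyte markers fell for 2 of 4 genes in KO and 3 of 4 in WT hearts, with array means of 6.11 to 6.44 in KO LPS hearts, against 7.03 to 7.59 in KO saline hearts, and of 6.24 to 6.96 in WT LPS hearts, against 7.83 to 8.35 in WT saline hearts. Fibroblast marker means ran from 8.84 to 9.88 in KO LPS hearts, against 10.20 to 10.35 in KO saline hearts, and from 8.995 to 10.25 in WT LPS hearts, against 10.24 to 10.46 in WT saline hearts. Endothelial marker means ran from 8.02 to 8.41 in KO LPS hearts, against 8.57 to 9.02 in KO saline hearts, and from 7.99 to 8.93 in WT LPS hearts, against 8.54 to 8.91 in WT saline hearts. Atrial markers (Myl7, Sln, Nppa and Bmp10) fell for 3 of 4 genes in each genotype. Their array means ran from 10.47 to 10.67 in KO LPS hearts, against 11.45 to 11.69 in KO saline hearts. In WT hearts they ran from 10.37 to 10.89 after LPS, against 10.78 to 11.56 after saline. WT LPS array 4 had the highest macrophage, endothelial and fibroblast marker means of the WT LPS arrays (8.17, 8.93 and 10.25), and KO LPS array 2 the lowest of the KO LPS arrays (6.47, 8.02 and 8.84). The part of cell makeup in the changes of the heat shock genes was not tested.

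Next, the genotypes were compared. No member was called between KO and WT hearts after LPS or after saline (limma), where 0.0055% of all genes tested (1 gene) were called in each comparison. At an unadjusted p under 0.05 (limma) there were 2 of 10 members after LPS, beside 7.56% of all genes. After saline there was 1 of 10, beside 3.48% of all genes. Hspa1b was lower in every KO saline array (6.63 to 6.87) than in any WT saline array (6.94 to 8.07), with a difference of -0.82 ± 0.28 (unadjusted p = 0.00942, adjusted p = 1). Its other 2 probe sets gave -0.81 ± 0.24 and -0.81 ± 0.31, and leaving out single arrays gave -1.04 to -0.66. Adipocyte marker means ran from 7.03 to 7.59 in KO saline hearts, against 7.83 to 8.35 in WT saline hearts, and their part in the difference was not tested. After LPS the Hspa1b difference was -0.32 ± 0.28 (adjusted p = 0.781), and without WT LPS array 4 it was 0.01. Bag3 was also lower in every KO saline array (10.87 to 10.95) than in any WT saline array (10.99 to 11.28), with a difference of -0.20 ± 0.13 and adjusted p = 1. So 2 of 10 members lay lower in KO saline hearts without overlap, where 2.08% of all genes did. WT saline arrays 1 and 4, which carried skeletal muscle signal, gave 7.54 and 7.81 for Hspa1b and 11.28 and 11.13 for Bag3. WT saline arrays 2 and 3 gave 6.94 and 8.07 for Hspa1b and 10.99 and 11.11 for Bag3. The part of skeletal muscle signal in these differences was not tested.

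After LPS, Hspe1 was lower in every KO array (9.59 to 10.126) than in any WT array (10.134 to 10.27). The difference was -0.25 ± 0.11 (unadjusted p = 0.0339, adjusted p = 0.656), and -0.13 without KO LPS array 2. Its second probe set overlapped, from 8.18 to 8.91 in KO and 8.83 to 9.05 in WT LPS hearts, with a difference of -0.23 ± 0.15. By brightest probe sets Hspe1 was the only member without overlap after LPS, where 1.18% of all genes lay lower in KO hearts without overlap. Hsph1 differed by -0.47 ± 0.19 (unadjusted p = 0.0283, adjusted p = 0.655), with the groups overlapping at WT LPS array 3. Its difference was -0.64 without that array and -0.26 without WT LPS array 4.

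The LPS responses of the 2 genotypes were then set against each other. None of the 10 members and 0% of all genes tested passed (limma, 0 members and 813 genes, or 4.47%, at an unadjusted p under 0.05). For Hspb1 the KO response minus the WT response was 0.13, with a 95% interval from -0.42 to 0.67, and for Hspe1 it was -0.26, from -0.59 to 0.07. The widest interval was that of Hspa1b, at 0.50 (from -0.33 to 1.34). Hspd1 and Hsph1 gave -0.18 each, with intervals from -0.62 to 0.26 and from -0.76 to 0.40. Missing the threshold does not show that the responses were alike.

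**Figure D4:**
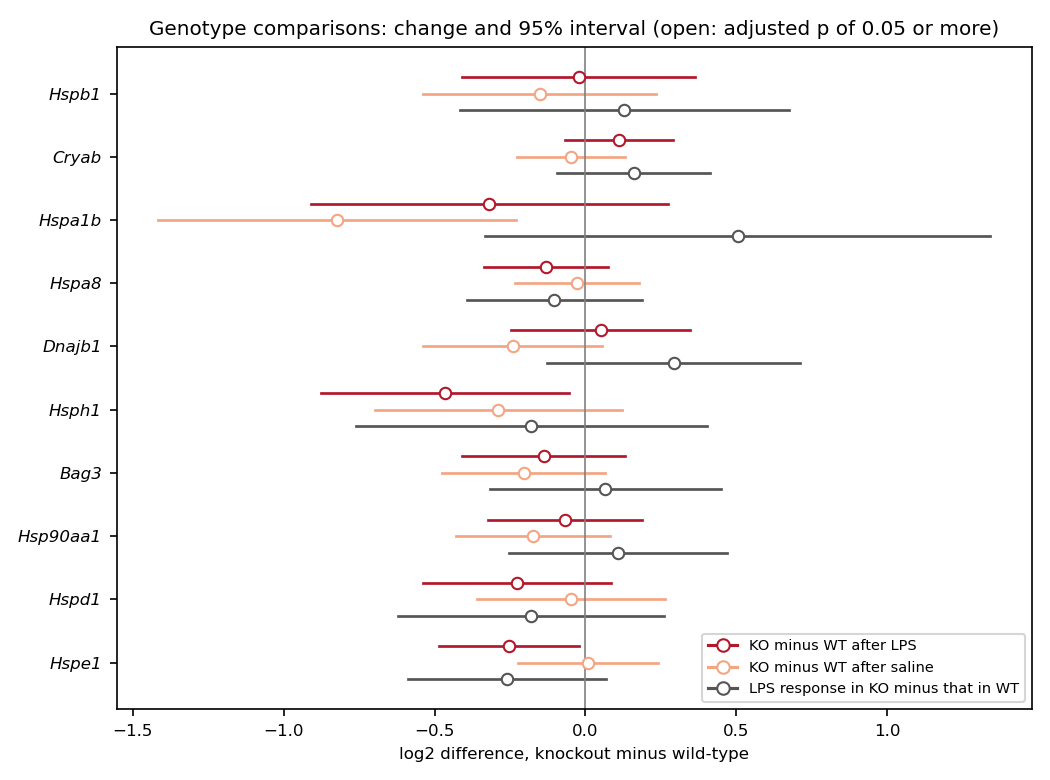
Differences between genotypes (horizontal axis, KO minus WT, log2) with 95% intervals for each heat shock gene, after LPS, after saline, and for the LPS response in KO minus that in WT hearts. All points are open because none passed the adjusted threshold. Hspa1b after saline, at -0.82, lay farthest from 0.

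Some genes varied across arrays much as the members did, by Pearson r of the deviations from group means over 16 arrays, among 11243 genes brighter than the median. For Hspb1 these were Synpo2l (r = 0.95), Plk2 (0.93) and Myl12a (0.93). For Hspd1 they were Vps26b, Acat1 and Mkks (0.97 each), and for Hspe1 Ccdc58, Yars2 and Ppp3cc (0.93, 0.93 and 0.92). Without KO LPS array 2 the r was 0.93, 0.90 and 0.89 for the genes like Hspd1 and 0.78, 0.82 and 0.78 for those like Hspe1. For Bag3 they were Actn2 (0.95), Atg101 (0.94) and S100a1 (0.93). For Hspa1b they were Ndrg2 (0.95), Psmd2 (0.90) and Gart (0.88), and without WT LPS array 4 the r of Psmd2 and Gart was 0.75 and 0.71. Among the members themselves Hspb1 varied with Hsp90aa1 (r = 0.75), and Cryab varied against Hspd1 (r = -0.83). Without KO LPS array 2 these were 0.66 and -0.62. In that array the brightest Cryab probe set gave 13.56, the highest of its group. A second bright Cryab probe set gave 12.85 there, under its group mean of 12.92. All of these r values share arrays and normalization and are given as descriptions.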

How the data were processed

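Total RNA from 16 ventricle samples was labelled as biotinylated cRNA and hybridised to Affymetrix arrays, 1 per sample. The deposited values are on the log2 scale and were made by the authors with RMA, per the submitters' processing notes; the version is not given in the sources used here, and the log2 scale was read from the values. RMA equalises the distributions of arrays, so changes are relative to the rest of the transcripts. Of 45101 probe sets, 64 controls were left out, 34945 carried 1 gene symbol, 932 several and 9160 none. The brightest probe set per gene gave 18193 genes. All 16 arrays entered a single limma 3.58.1 fit (R 4.3.3) with 4 group means (intensity trend, 12 residual degrees of freedom, two-sided, Benjamini-Hochberg over all genes, threshold 0.05). Errors are limma standard errors unless named SD. The members, lists and tests were chosen with earlier results of these data known. All members were named, and list genes were named where called or where next to or closest to a member; Hspb6, Hspb7, Hspa9 and the heat shock factor genes fall outside this rule and were named after their values were seen. The fit was checked on simulated data. Same-numbered arrays did not pair (3 of 24 correlations of deviations over 0.1, median -0.03). The transcript of the targeted receptor is not reported here. Promoter windows were RefSeq's (GRCm38.p6). Gene symbols came from the platform annotation, updated through Entrez identifiers for 34741 probe sets. Alternatives were another variance prior, sample set, probe set rule, filter, centring and weighting, a replicate block, and arrays left out (for list counts and correlations, chosen after seeing the data).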

Additional observations from a re-analysis of the deposited data

Results flagged for a closer look

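Of 40 member-by-group sets of 4 arrays, 2 held an array whose gap to the nearest other array passed Dixon's 95% critical share of the group's range, and chance flags about 1 in 20 such sets. Hsp90aa1 in WT saline array 2 had a log2 value of 10.52, where the nearest array had 10.81. Hspd1 in KO LPS array 2 had 10.31, where the nearest had 11.03. Without KO LPS array 2 Hspd1 still fell in KO hearts (-0.41, adjusted p = 0.00598 by limma). No member's LPS response differed between the genotypes by the test of that difference.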

How the results depend on the processing

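Across 1265 repeated values of the members' changes, 1244 kept their side of the threshold, 10 calls were lost, 11 were gained and 0 called changes turned sign. Uncalled changes turned sign in 54. Members called in WT hearts numbered 3, and 5 with array weights, 1 without WT saline arrays 1 and 4 together, and 2 to 5 with single arrays left out, the 5 being without WT LPS array 4. Without those 2 saline arrays all called genes there numbered 2061; that comparison then rests on the other 2 saline arrays. Members called in KO hearts stayed at 4 or 5. Genes called between KO and WT hearts numbered 1 in each comparison. After LPS they were 0 with only the groups compared, 0 without WT saline arrays 1 and 4, and 0 to 3 with single arrays left out. After saline they were 14 with only the groups compared, 21 with array weights, 0 without dim genes, and 1 to 5 with single arrays left out; the cause was not tested. With the replicate block, members called were 4 in KO and 3 in WT hearts, all called genes were 4487 and 3537, and no call on a member changed; in 4 of 24 same-numbered pairs the best correlate was the array's own number. The number of arrays, and signal near background for 3 of the 25 member probe sets, limit the precision.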
